A study of Homo sapiens with 29 samples.

Results

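The HLA class II pathway was followed here in LHCN-M2 cells, an immortalised line of human skeletal myoblasts, through 8 genes. They were HLA-DRA, HLA-DPA1 and HLA-DPB1, CD74, HLA-DMA and HLA-DMB, HLA-DOA, and CIITA. The genes were selected on these same arrays. At 96 h after ZNF148 knockdown in growth media, HLA-DOA and HLA-DMB were among the largest falls, while interferon genes rose. That comparison is therefore given below as a description of the 8 genes without a test. Their 15 probes, of 58201 on the array, were found through the transcript accession of each probe, and all 15 passed the filter on dim probes, as did 38839 probes in all. Cells received 20 nM of a siRNA against ZNF148, a zinc finger transcription factor, or of a nontargeting siRNA, and were sampled 24, 48 and 96 h after transfection in growth media, or 48 and 96 h after growth media had been exchanged for differentiation media, 2 days after transfection. The 10 groups held 3 arrays each, except 96 h nontargeting siRNA in growth media with 2. Hours in growth and differentiation media therefore count from different events. The paper describes cells in growth media as subconfluent at 24 h and confluent at 48 and 96 h. Time and cell density therefore cannot be told apart between 24 h and the later times. All groups come from 1 cell line, and the labels do not say whether replicates were separate cultures, so p-values measure the spread between these arrays, which may be technical.

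HLA class II molecules are pairs of an alpha and a beta chain that show peptides from endosomes to CD4+ T cells. CIITA is the coactivator that switches their genes on. It does not bind DNA itself but joins RFX and NF-Y proteins on a shared promoter module, of which the X box and the Y box are parts. CD74, the invariant chain, guards the peptide groove of new class II molecules, HLA-DM (HLA-DMA with HLA-DMB) exchanges its remnant for peptide, and HLA-DO, of which HLA-DOA is the alpha chain, holds HLA-DM back. Professional antigen-presenting cells make these proteins constitutively, and muscle cells are known to make them after exposure to interferon gamma.

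The promoters of the genes that moved together are shown because CIITA acts through them. Each run is the 150 bases before the RefSeq gene start (GRCh38.p14), read along the gene's strand. Capitals mark matches on either strand to AGNNACNGA, a form of the X box letters, or to CCAAT, the Y box letters, read as ATTGG on the other strand.
HLA-DOA (chr6:33009592-33009741, minus strand): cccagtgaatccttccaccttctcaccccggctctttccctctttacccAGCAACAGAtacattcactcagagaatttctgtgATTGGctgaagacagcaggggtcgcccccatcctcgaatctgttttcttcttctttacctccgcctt
HLA-DMA (chr6:32953098-32953247, minus strand): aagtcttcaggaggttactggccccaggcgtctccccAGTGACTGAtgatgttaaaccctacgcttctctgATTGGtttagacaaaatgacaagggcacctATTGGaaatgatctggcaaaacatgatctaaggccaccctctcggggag
HLA-DMB (chr6:32941029-32941178, minus strand): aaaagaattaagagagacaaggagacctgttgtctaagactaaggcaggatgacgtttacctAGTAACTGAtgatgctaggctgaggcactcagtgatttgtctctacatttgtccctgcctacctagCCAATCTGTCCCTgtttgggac
HLA-DPA1 (chr6:33073650-33073799, minus strand): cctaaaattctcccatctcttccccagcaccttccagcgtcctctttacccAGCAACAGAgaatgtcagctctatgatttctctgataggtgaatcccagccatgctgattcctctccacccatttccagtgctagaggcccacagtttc
HLA-DPB1 (chr6:33075840-33075989, plus strand): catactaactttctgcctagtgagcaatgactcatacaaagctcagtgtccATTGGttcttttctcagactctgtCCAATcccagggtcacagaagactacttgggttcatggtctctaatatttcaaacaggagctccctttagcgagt
CD74 (chr5:150412911-150413060, minus strand): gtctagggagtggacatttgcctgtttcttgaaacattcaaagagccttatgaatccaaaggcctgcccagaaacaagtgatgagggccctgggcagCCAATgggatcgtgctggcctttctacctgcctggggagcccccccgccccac

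Sequences of 6 of the 8 genes were found, in 7 windows, since HLA-DPA1 has 2 starts in the table and the window of the other start held neither motif. AGNNACNGA was in 4 of the 7 windows, against 7.31% of all 35116 promoter windows of this length, and CCAAT in 5 of 7, against 23.5%. HLA-DOA, HLA-DMA and HLA-DMB held both, as did 1.65% of all windows. In HLA-DMB the CCAAT match overlapped a reverse match to AGNNACNGA. In HLA-DOA the X box letters began at position -101 and ATTGG at -67, and in HLA-DMA they began at -113 and -79, the same spacing of 34 bases. The spacing was taken from HLA-DOA, so the match of HLA-DOA itself was given in advance. Only 5 of the 35116 windows held that arrangement. HLA-DQA1, another class II chain, was among them, and so were LOC124904655 and SLAIN2, which are not among the class II genes listed here. The motifs were chosen with the sequences in view, and a match to letters is not a measured binding site.

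The targeted gene was lower in each condition. ZNF148 signal, on the log2 scale used throughout, was 8.62, 8.67 and 8.68 with nontargeting siRNA at 24 h and 7.09, 7.29 and 7.01 with ZNF148 siRNA, a difference of -1.53, and the differences in the other conditions lay between -2.07 and -2.74. Between 41.6% and 56.5% of probes were well above background on an array. Genes of the muscle lineage (MYOD1, MYF5, DES and CDH15) were well above background on all 29 arrays. Nontargeting replicate 1 at 48 h in growth media stood apart from its group, with a summed signal of 12 muscle markers of 874000 against 119000 and 113000, so results at that time are given with and without it. Arrays of 24 h were on 1 slide, so in levels that time and the slide cannot be told apart, and the other arrays were spread over 3 slides that mixed the groups.

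At 24 h in growth media CIITA was the member with the greatest fall. Its signal was 10.24, 10.24 and 10.16 on the nontargeting arrays and 7.46, 7.33 and 7.65 on the ZNF148 siRNA arrays. The groups lay far apart, with a difference of -2.74 (SE 0.59), or 6.66-fold, at a limma adjusted p of 0.00139. The structural and accessory genes had smaller differences. HLA-DMB went from 11.13, 11.04 and 11.01 to 9.95, 9.92 and 9.97, a fall of 1.11 (SE 0.283, limma adjusted p = 0.00559). HLA-DOA went from 11.74, 11.67 and 11.66 to 10.59, 10.65 and 10.67, a fall of 1.05 (SE 0.366, limma adjusted p = 0.0405), and this call was lost whenever any 1 of the 6 arrays was left out, with adjusted p up to 0.0968.

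Calls required an adjusted p under 0.05 over all tested probes and more than a 2-fold difference. By that rule 3 of the 8 genes were called lower at 24 h (CIITA, HLA-DMB and HLA-DOA) and none higher, where 2.9% of all tested probes were called lower and 1.93% higher. HLA-DMA, HLA-DRA, HLA-DPA1 and HLA-DPB1, the HLA-DM alpha chain and the DR and DP chains, differed by -0.78 to -0.95 with adjusted p from 1.35e-05 to 0.00099, short of the 2-fold limit. CD74 differed by -0.45 (95% interval -1.02 to 0.12), which did not pass the test. In all 8 genes the arrays of the 2 siRNAs did not overlap, with knockdown the lower, as was so for 22.2% of all tested probes. The median difference of the 8 genes was -0.90, and that of 18432 genes tested was -0.001. In bulk RNA, fewer cells that make a transcript and less of it in each cell cannot be told apart.

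**Figure D1:**
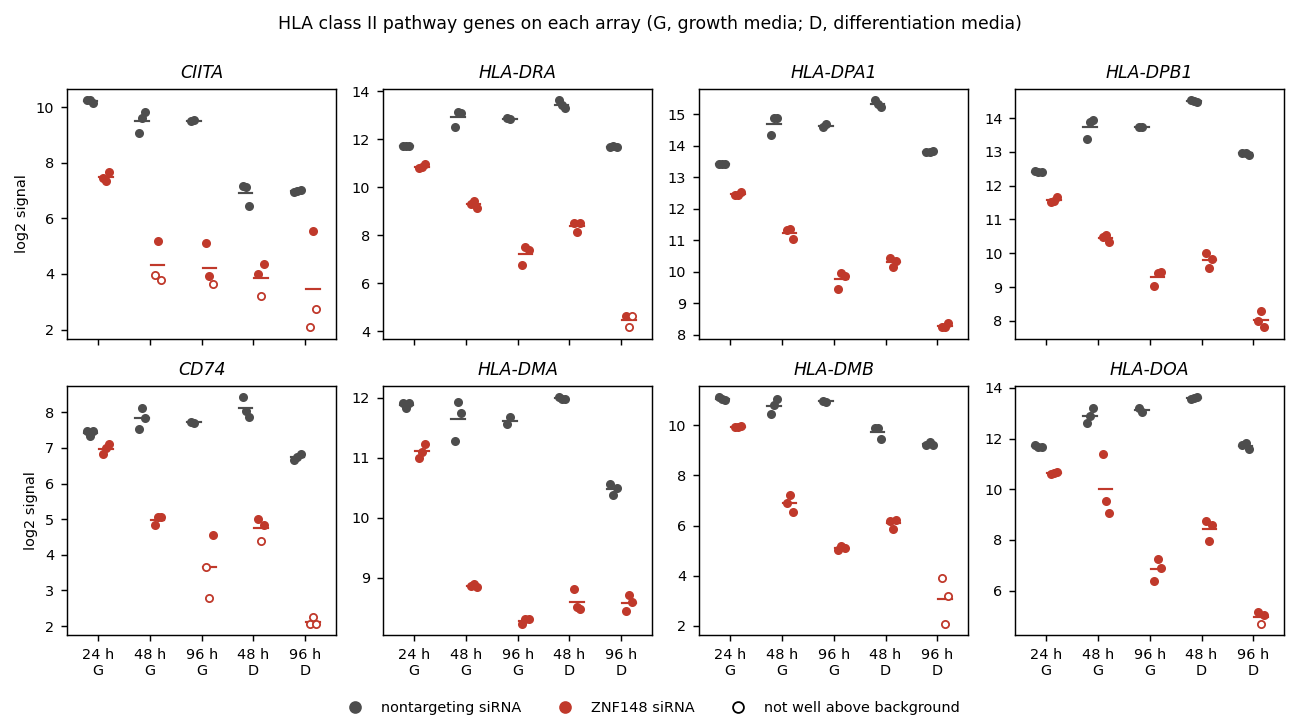
Log2 signal (vertical axis) of the 8 genes on each of the 29 arrays, by condition (horizontal axis; G, growth media; D, differentiation media), with a short line at each group mean and open points where the probe was not well above background. Within each condition the grey points (nontargeting siRNA) lie above the red points (ZNF148 siRNA). At 24 h that was so for 22.2% of all tested probes. CIITA is the gene with the widest gap at 24 h, 10.21 against 7.48 in the mean.

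By 48 h in growth media all 8 genes had fallen. CIITA was 9.06, 9.61 and 9.82 with nontargeting siRNA and 3.96, 5.20 and 3.79 with ZNF148 siRNA. Only 1 of these last 3 values was well above background, so the difference of -5.18 (SE 0.59, limma adjusted p = 2.19e-07) has its lower end near the limit of the array. HLA-DMB followed with -3.89 (SE 0.283), HLA-DRA with -3.62 (SE 0.178), HLA-DPA1 with -3.44 (SE 0.132) and HLA-DPB1 with -3.28 (SE 0.139). HLA-DRA, the DR alpha chain, stood at 12.53, 13.13 and 13.08 on the nontargeting arrays and at 9.32, 9.42 and 9.14 on the others, a 12.3-fold gap. CD74 differed by -2.85, or -1.70 with a background correction that raises dim values (normexp), and HLA-DMA by -2.78. Of all tested probes 10.3% were called lower and 9.86% higher in this comparison, and the median of the 8 genes was -3.36 against -0.045 for all genes.

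HLA-DOA had the widest spread at 48 h. Its ZNF148 siRNA arrays read 11.39, 9.54 and 9.07, against 12.60, 12.90 and 13.19 with nontargeting siRNA. The difference was -2.89 (SE 0.366, limma adjusted p = 9.07e-07), and without ZNF148 siRNA replicate 1 it was -3.59. Without nontargeting replicate 1, the array that stood apart, the 8 genes differed by -2.96 to -5.39 and all stayed called. Each of the 3 slides held 1 array of either siRNA at this time. Within slides CIITA differed by -5.86 to -3.86, HLA-DRA by -3.98 to -3.11 and HLA-DOA by -3.83 to -1.80.

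The change from 24 to 48 h was itself tested as a difference between the 2 knockdown differences, which come from separate arrays. Cells were subconfluent at 24 h and confluent at 48 h, so time and cell density cannot be told apart in that change. All 8 genes fell further by 48 h, where 8.39% of probes were called so. The further change ran from -1.84 for HLA-DOA (SE 0.518, limma adjusted p = 0.00764) to -2.78 for HLA-DMB (SE 0.4, limma adjusted p = 1.1e-05), and was -2.76 for HLA-DRA (SE 0.252). For CIITA, already 6.66-fold down at 24 h, it was -2.44 (SE 0.835, limma adjusted p = 0.0264). That call was lost without any 1 of 5 arrays (nontargeting replicates 2 and 3 and ZNF148 siRNA replicates 1 and 3 at 48 h, and ZNF148 siRNA replicate 3 at 24 h), with adjusted p up to 0.0673. With the normexp correction the CIITA value was -0.86 and was no longer called, while the other 7 genes were, and with the probes of a gene averaged it was -0.11. Without the 48 h nontargeting array that stood apart the changes ran from -1.99 for HLA-DOA to -2.95 for HLA-DMB, with CIITA at -2.66, and all 8 were called.

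In differentiation media, 48 h after the media change, HLA-DOA, HLA-DRA, HLA-DPA1 and HLA-DPB1 showed the deepest falls of the 8 genes. HLA-DOA read 13.55, 13.60 and 13.64 with nontargeting siRNA and 8.73, 7.97 and 8.57 with ZNF148 siRNA, a difference of -5.17 (SE 0.366). HLA-DRA read 13.62, 13.43 and 13.29 against 8.52, 8.12 and 8.53, a difference of -5.06 (SE 0.178). HLA-DPA1 read 15.43, 15.32 and 15.23 against 10.44, 10.14 and 10.33, a difference of -5.03 (SE 0.132). These 3 differences correspond to 36.1-fold, 33.3-fold and 32.6-fold. HLA-DPB1 differed by -4.69, HLA-DMB by -3.66, HLA-DMA by -3.39 and CD74 by -3.37, or -1.91 with the normexp correction. All 8 genes were called lower, where 14.9% of probes were called lower and 13.2% higher, with adjusted p from limma between 2.87e-17 (HLA-DPA1) and 0.000121 (CIITA). Within the 3 slides HLA-DOA differed by -5.58 to -4.91.

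CIITA had the smallest fall at this time. It read 7.18, 7.13 and 6.46 with nontargeting siRNA and 3.98, 3.19 and 4.37 with ZNF148 siRNA, 2 of the last 3 values being well above background. The difference was -3.07 (SE 0.59), and -1.25 with the normexp correction, and within slides it ran from -3.99 to -2.47. The nontargeting arrays themselves were lower than in growth media, as described below.

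Whether the knockdown difference was larger at 48 h in differentiation than at 48 h in growth media was tested in 1 model. The differentiation arrays were taken later after transfection, since media were exchanged 2 days after it. Medium and time since transfection therefore cannot be told apart here. The difference was greater in differentiation media for 4 of the 8 genes, where 7.31% of probes were called in that direction. These were HLA-DOA at -2.28 (SE 0.518, limma adjusted p = 0.00147), HLA-DPA1 at -1.58 (SE 0.187), HLA-DRA at -1.44 (SE 0.252) and HLA-DPB1 at -1.41 (SE 0.197). HLA-DMA differed by -0.61 (limma adjusted p = 0.00702, under 2-fold). HLA-DMB differed by 0.24 (95% interval -0.60 to 1.07) and CD74 by -0.52 (-1.33 to 0.28), neither of which passed. CIITA leaned the other way at 2.11 (95% interval 0.37 to 3.84, limma adjusted p = 0.0609). It passed with the normexp correction at a limma adjusted p of 3.71e-07, and without ZNF148 siRNA replicate 2 of either medium (0.0284 and 0.042). Its knockdown means were near background in both media, 4.32 in growth and 3.85 in differentiation media, with 1 and 2 of 3 arrays well above it. The nontargeting means were 9.50 and 6.92, so a weaker effect on CIITA is not settled. Without the 48 h nontargeting array that stood apart, the 4 called differences were -2.13, -1.40, -1.25 and -1.24 in the order HLA-DOA, HLA-DPA1, HLA-DRA and HLA-DPB1. Without ZNF148 siRNA replicate 1 in growth media the HLA-DOA difference was -1.58 and stayed called.

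**Figure D2:**
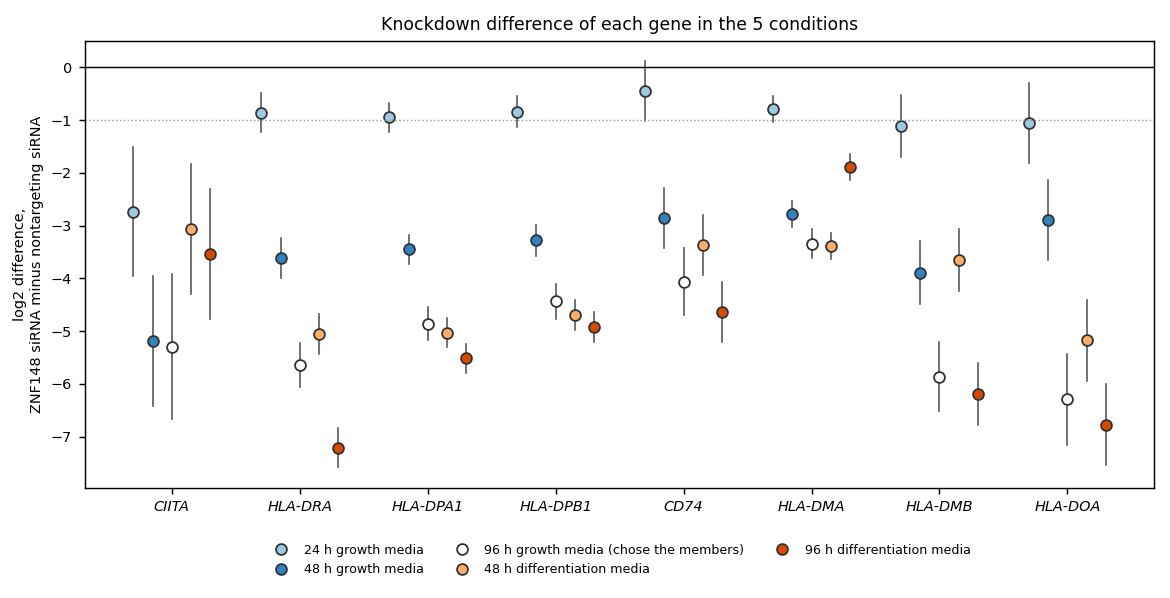
Log2 difference between ZNF148 siRNA and nontargeting siRNA (vertical axis) of the 8 genes in 5 conditions, with 95% intervals from the fit and a dotted line at a 2-fold fall. White points are the 96 h growth media comparison that chose the genes. CIITA starts at -2.74 at 24 h, where the others lie between -1.11 and -0.45, and by 96 h in differentiation media HLA-DRA has gone to -7.21 and HLA-DMA to -1.89.

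At 96 h in differentiation media the genes parted. HLA-DRA read 11.69, 11.72 and 11.67 with nontargeting siRNA and 4.64, 4.17 and 4.63 with ZNF148 siRNA, where 1 of 3 arrays was well above background, and differed by -7.21 (SE 0.178). HLA-DOA read 11.73, 11.84 and 11.59 against 5.15, 4.68 and 5.02, of which 2 were well above background, and differed by -6.77 (SE 0.366). HLA-DMB and CD74 were not well above background on any ZNF148 siRNA array. Their falls are given as bounds, the nontargeting mean over the higher of the dim value and the lowest detected signal of each array, and were at least 27.8-fold for HLA-DMB (9.25 against 3.06 as measured) and at least 4.92-fold for CD74 (6.75 against 2.12). HLA-DPA1 differed by -5.51 (SE 0.132) and HLA-DPB1 by -4.92 (SE 0.139).

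HLA-DMA, by contrast, kept a signal of 8.45, 8.72 and 8.59 under knockdown, against 10.56, 10.38 and 10.49. Its difference was -1.89 (SE 0.119, limma adjusted p = 2.35e-11). With the normexp correction it was -1.71, and CIITA (-1.33) and CD74 (-1.40) differed by less. CIITA read 6.93, 7.0 and 7.03 against 2.08, 5.54 and 2.75, and only the middle value was well above background. It differed by -3.53 (SE 0.59), by -4.57 without ZNF148 siRNA replicate 2, by -1.33 with the normexp correction and by -1.57 with its probes averaged, and it was not called by the methods' test (adjusted p = 0.0669). All 8 genes were called lower by limma, beside 11.5% of probes called lower and 9.24% higher, with a median of -5.22. Arrays of both siRNAs shared 2 slides, within which HLA-DRA differed by -7.50 and -7.07, HLA-DMA by -1.88 and -1.77, and CIITA by -4.21 and -1.49.

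Between 48 and 96 h in differentiation media the fitted knockdown difference changed by -2.54 for HLA-DMB (SE 0.4), -2.15 for HLA-DRA (SE 0.252), -1.60 for HLA-DOA (SE 0.518) and -1.26 for CD74 (SE 0.386). These 4 were called, where 7.42% of probes were called in that direction. Each had knockdown values at or near background at 96 h, so a deeper fall is not settled for them. CD74, at 10.4-fold lower at 48 h, fell by at least 4.92-fold at 96 h, and with the normexp correction none of the 4 was called, with HLA-DRA at -0.57, HLA-DMB at -0.38, HLA-DOA at -0.09 and CD74 turned to 0.52. HLA-DOA also lost its call without ZNF148 siRNA replicate 1 at 48 h or replicate 2 at 96 h (adjusted p = 0.0538 and 0.0516). HLA-DMA moved the other way by 1.49 (SE 0.169, limma adjusted p = 4.93e-07), where 6.67% of probes were called, and by 1.43 with that correction. This came with a lower nontargeting level, 10.48 at 96 h against 11.98 at 48 h, while the knockdown level stood at 8.58 and 8.60. HLA-DPB1 differed by -0.23 (95% interval -0.64 to 0.18).

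The 96 h growth media comparison chose the genes, and its values are given without a test. HLA-DOA read 13.20 and 13.05 with nontargeting siRNA and 6.38, 7.23 and 6.88 with ZNF148 siRNA, a difference of -6.29, or 78.5-fold. HLA-DMB read 10.98 and 10.95 against 5.02, 5.20 and 5.12, a difference of -5.86. HLA-DRA differed by -5.65, CIITA by -5.30, HLA-DPA1 by -4.86, HLA-DPB1 by -4.43, CD74 by -4.06 and HLA-DMA by -3.34. The ZNF148 siRNA arrays lay below both nontargeting arrays for all 8 genes, as they did for 34% of all tested probes, and nothing is read from that count.

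Without knockdown, levels of the class II genes differed between media and times, and CIITA did not follow the order of most other genes. With nontargeting siRNA, CIITA was highest at 24 h in growth media (10.21 ± 0.0455, SD, n = 3), then 9.52 at 96 h (n = 2) and 9.50 ± 0.389 at 48 h, which did not differ beyond their spread, and then 6.99 ± 0.0495 and 6.92 ± 0.404 in differentiation media at 96 and 48 h, which likewise did not. HLA-DRA ran from 13.45 ± 0.168 at 48 h in differentiation media through 12.91 ± 0.334 and 12.87 at 48 and 96 h in growth media, which overlapped, to 11.72 ± 0.0147 at 24 h in growth media and 11.69 ± 0.0243 at 96 h in differentiation media, which overlapped as well. HLA-DOA was highest in the same group (13.60 ± 0.0459) and lowest at 24 h (11.69 ± 0.0418) and at 96 h in differentiation media (11.72 ± 0.125). HLA-DPA1 and HLA-DPB1 had their highest means there too, 15.33 and 14.49, as had HLA-DMA (11.98) and CD74 (8.11). HLA-DMB was nearer to CIITA, with its highest mean at 24 h in growth media, 11.06. Its lowest means were in differentiation media, 9.75 at 48 h and 9.25 at 96 h.

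The change of media at 48 h was tested within each siRNA. Arrays in differentiation media were also later after transfection, so medium and that time cannot be told apart. Under nontargeting siRNA CIITA was lower in differentiation media by 2.57 (SE 0.59, limma adjusted p = 0.00118) and HLA-DMB by 1.03 (SE 0.283, limma adjusted p = 0.00558), the 2 genes of 8 that were called, beside 6.59% of probes called lower. Without replicate 3 of either nontargeting group HLA-DMB differed by -0.88 and was not called. HLA-DPB1 differed by 0.76 (limma adjusted p = 0.000112), HLA-DPA1 by 0.65 (0.000397), HLA-DRA by 0.54 (0.02) and HLA-DMA by 0.34 (0.027), each upward and under 2-fold, and HLA-DOA by 0.70 without passing the test. With the nontargeting array that stood apart left out, HLA-DRA differed by 0.34 and HLA-DMA by 0.15, and neither had an adjusted p under 0.05, while CIITA differed by -2.79. Under ZNF148 siRNA HLA-DOA was lower in differentiation media by 1.57 (SE 0.366, limma adjusted p = 0.00495), the only gene of 8 called, beside 2.1% of probes. Without replicate 1 in growth media it differed by -0.88 and was not called. HLA-DPA1 and HLA-DRA differed by -0.94 and -0.90. These media differences use the same arrays as the 48 h knockdown differences above.

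From 48 to 96 h in differentiation media with nontargeting siRNA, 6 of the 8 genes were called lower, where 3.71% of probes were. The values were -1.88 (SE 0.366) for HLA-DOA, -1.75 (SE 0.178) for HLA-DRA, -1.54 for HLA-DPB1, -1.52 for HLA-DPA1, -1.51 for HLA-DMA and -1.36 for CD74. CIITA and HLA-DMB were not called, with differences of 0.07 (95% interval -1.16 to 1.30) and -0.50 (-1.09 to 0.09). Under ZNF148 siRNA 6 genes were called lower, where 3.47% of probes were. The values were -3.91 (SE 0.178) for HLA-DRA, -3.48 for HLA-DOA, -3.03 for HLA-DMB, -2.62 for CD74, -2.01 for HLA-DPA1 and -1.77 for HLA-DPB1. CD74 and HLA-DMB were below detection at the later time there, which leaves bounds of at least 1.22-fold and at least 3.12-fold. The bound of CD74 is short of the 2-fold limit. With the normexp correction CD74 differed by -0.49 and HLA-DMB by -0.83, and neither was called. HLA-DRA was well above background on 1 of 3 and HLA-DOA on 2 of 3 of the later arrays, so their values also end near the limit of the array. HLA-DMA differed by -0.01 (95% interval -0.26 to 0.24).

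**Figure D3:**
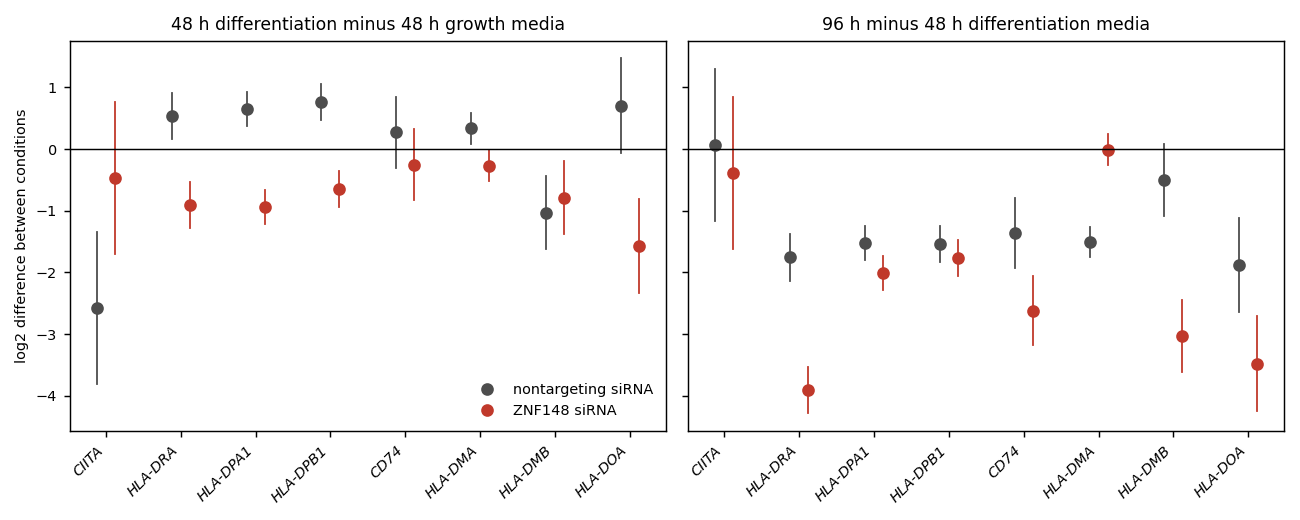
Log2 difference between conditions within each siRNA (vertical axis, with 95% intervals from the fit) for the 8 genes, left for differentiation against growth media at 48 h and right for 96 against 48 h in differentiation media. With nontargeting siRNA CIITA lies at -2.57 on the left, where HLA-DPB1 lies at 0.76, and at 0.07 on the right, where HLA-DOA lies at -1.88.

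The other probes of these genes were measured as well. The second HLA-DMA probe differed by -0.74, -2.74, -3.56 and -2.20 in the 4 tested knockdown comparisons (24 h and 48 h growth media, 48 h and 96 h differentiation media), and the second HLA-DPA1 probe by -0.80, -3.23, -4.68 and -4.52. The 3 further HLA-DPB1 probes differed by -0.78 to -0.90 at 24 h and by -4.69 to -5.07 at 96 h in differentiation media. The second probes of HLA-DOA and CIITA were dim, with group means from 3.77 to 4.99 for HLA-DOA and 2.00 to 4.69 for CIITA. That HLA-DOA probe differed by -0.24 to -0.62 and passed in none of the 4. The CIITA probe differed by -2.70 at 24 h (4.69 against 2.00). There 2 of 3 nontargeting arrays and no ZNF148 siRNA array were well above background, so the size of that fall is not settled. The probe passed at none of the later times. Its own change from 24 to 48 h was 2.23 (limma adjusted p = 0.00124), opposite to that of the brighter probe. At 48 h in growth media no array of either siRNA measured it well above background, so nothing is read from that change.

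Most other class II chains were also called lower. Of 9 further chain genes, 7 were called lower at each of the 3 later tested points, and none was called at 24 h, with medians of -0.55, -3.10, -4.18 and -4.20 in time order within media. Of all probes 2.9%, 10.3%, 14.9% and 11.5% were called lower in these comparisons. No call at 24 h is near the share there, so nothing is read from it. HLA-DRB1, a DR beta chain, differed by -3.02, -4.18 and -4.20 at those points. HLA-DQB1 differed by -3.14, -4.29 and -4.64. HLA-DQA1 differed by -3.76 and -4.51 and fell, at 96 h in differentiation media, where no ZNF148 siRNA array was well above background, by at least 15.4-fold. HLA-DQA2 fell by at least 3.13-fold, 3.72-fold and 1.54-fold, since no ZNF148 siRNA array measured it. It was well above background on 11 arrays, all nontargeting and none at 24 h, and so passed the filter only through the group where it was high, which leaves 6 of the other 8 chains called. HLA-DRB3, HLA-DRB4 and HLA-DRB5 differed by -2.35, -3.1 and -3.11 at 48 h in growth media. HLA-DOB, the partner of HLA-DOA, differed by -0.74 there and by 0.19 and -0.66 later, and HLA-DQB2 by 0.97, 0.82 and 0.65, and neither was called. The DRB and DQ genes are highly alike and vary between people, so a probe may read more than its named gene.

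Among the DNA-binding partners of CIITA, RFX5 was called lower in all 4 comparisons. RFX5, the large subunit of the RFX complex, went from a mean of 10.67 to 9.31 at 24 h, a difference of -1.36 (SE 0.077, limma adjusted p = 5.08e-11). Later it differed by -1.19, -2.11 and -1.30, and its second probe by -1.28, -1.02, -1.69 and -1.22. RFXAP, another RFX subunit, was called lower at 96 h in differentiation media (-1.84, SE 0.309). NFYA, the NF-Y subunit, was called lower at 48 h in differentiation media (-1.26, SE 0.068), where its second probe differed by -0.31. KAT2B, an acetyltransferase coactivator, was called higher there (1.19, SE 0.113). The remaining 6 of 10 factors, RFXANK, NFYB, NFYC, CREB1, CREBBP and EP300, were not called in any of the 4 comparisons. The list had 1 call lower of 10 at 24 h, 1 at 48 h in growth media, 2 at 48 h and 2 at 96 h in differentiation media, where 2.9%, 10.3%, 14.9% and 11.5% of all probes were called lower, so its counts at the later points are near the background.

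The endosomal processing genes, proteases and reductases that prepare antigen or the invariant chain, had calls at 48 and 96 h. None of 10 tested was called at 24 h, while 3 were called lower and 1 higher at 48 h in growth media. In differentiation media 8 were called lower at 48 h and 5 at 96 h. Among all probes, 2.9% were called lower at 24 h and 10.3% at 48 h in growth media, where 9.86% were called higher. The shares called lower in differentiation media were 14.9% at 48 h and 11.5% at 96 h, below the list's counts there. No call at 24 h and 1 higher of 10 are near the shares, so a later start is not read from the counts. CTSL and CTSB, endosomal cathepsins, differed by -3.02 and -2.13 at 48 h in growth media, by -2.97 and -2.56 at 48 h in differentiation media and by -1.65 and -1.15 at 96 h. CTSV differed by -2.14 and -1.18 at 48 h in growth and differentiation media. In differentiation media, at 48 and 96 h, CTSF differed by -3.07 and -1.85, CST3, a cathepsin inhibitor, by -1.62 and -1.03, and IFI30, a thiol reductase, by -1.23 and -1.79. CTSD (-1.99) and MARCHF8 (-1.19), which marks class II molecules for removal, were called at 48 h in differentiation media. LGMN, the asparagine protease, was the call upward, by 2.00 at 48 h in growth media.

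**Figure D4:**
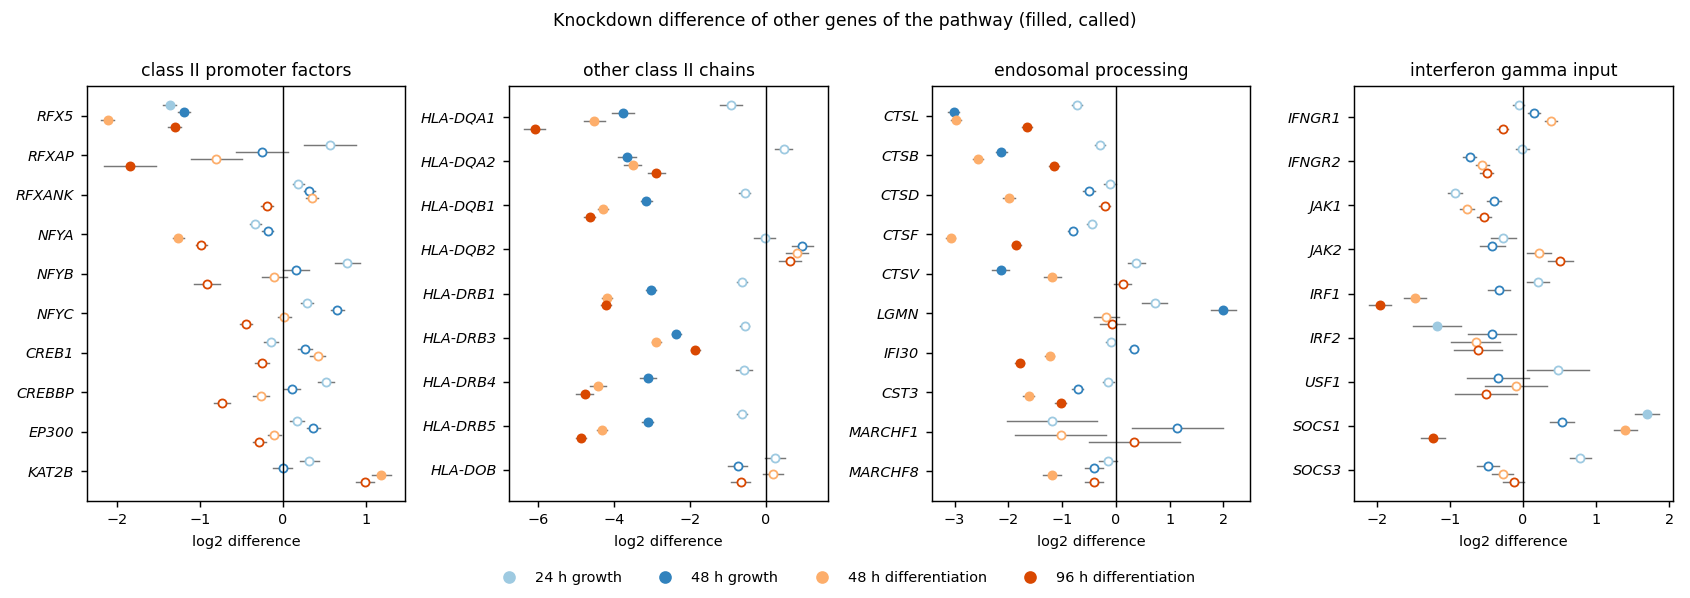
Log2 difference between ZNF148 siRNA and nontargeting siRNA (horizontal axis, with 1 SE) for genes of 4 lists around class II expression in the 4 tested comparisons, where filled points were called. RFX5 is filled at each time from -1.36 at 24 h. Of the other class II chains 7 of 9 are filled at the later times, where 10.3%, 14.9% and 11.5% of all probes were called lower.

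Few genes that carry the interferon gamma signal to CIITA were called. Of 9 tested genes of that list described here, 1 was called lower and 1 higher at 24 h, none at 48 h in growth media, 1 lower and 1 higher at 48 h and 2 lower at 96 h in differentiation media. Of all probes 2.9%, 10.3%, 14.9% and 11.5% were called lower and 1.93%, 9.86%, 13.2% and 9.24% higher, so no direction of the list is read from these counts. SOCS1, an inhibitor of JAK kinases, was called higher at 24 h (1.69, SE 0.162) and at 48 h in differentiation media (1.40) and lower at 96 h (-1.23). IRF1, which binds the inducible CIITA promoter, was called lower at 48 and 96 h in differentiation media (-1.48 and -1.96) and differed by 0.20 at 24 h without passing. IRF2 was called lower at 24 h (-1.18), with no knockdown array well above background, a fall of at least 1.31-fold. IFNGR1, IFNGR2, JAK1, JAK2, SOCS3 and USF1 were not called in any of the 4.

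Interferon-stimulated genes went the opposite way from class II late in the course. A rise of interferon genes at 96 h in growth media was already known when the class II genes were chosen. Of 24 tested, 5 were called lower and 1 higher at 24 h, 1 lower and 8 higher at 48 h in growth media, 3 lower and 4 higher at 48 h in differentiation media, and none lower and 22 higher at 96 h in differentiation media, where their median was 3.22. At that last time ISG15, a ubiquitin-like protein, differed by 5.17, IRF7 by 3.36 and BST2 by 7.01, while USP18, at 0.13, and STAT2, at 0.20 and named for not being called, were the exceptions. Class I presentation genes were called lower in part, 2 of 18 at 24 h, 11 at 48 h in growth media, 14 at 48 h and 8 at 96 h in differentiation media, none higher. Of all probes 2.9%, 10.3%, 14.9% and 11.5% were called lower and 1.93%, 9.86%, 13.2% and 9.24% higher in these comparisons. The interferon-stimulated counts at 48 h in differentiation media are near those shares. HLA-B, a class I heavy chain whose probe may also read its close relatives, differed by -2.00, -2.87 and -1.03 at the 3 later points. NLRC5, the class I counterpart of CIITA, differed by -1.02 at 24 h, by -1.71 and -1.84 at 48 h in growth and differentiation media, and by 0.16 at 96 h.

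Of 17 tested neighbours of the class II genes on chromosome 6, 1 was called lower at 24 h and 5 lower and 2 higher at 48 h in growth media. In differentiation media 8 were called lower at 48 h and 5 at 96 h. Of all probes 2.9%, 10.3%, 14.9% and 11.5% were called lower in these comparisons, and 9.86% higher at 48 h in growth media. The count at 24 h and the count higher are near those shares. The neighbours with the greatest change at 48 h in growth media were PSMB9, TAP2, PSMB8 and TAP1, which lie between class II genes and also belong to the class I list. PSMB9, an immunoproteasome subunit, differed by -1.31, -2.43, -2.64 and -2.01 over the 4 comparisons. TAP2, a peptide transporter subunit, differed by -0.04 at 24 h and by -1.81, -1.71 and -1.89 later. At 48 h in growth and differentiation media TAP1 differed by -1.23 and -1.37 and PSMB8 by -1.67 and -2.82. The neighbours' medians, from -0.16 at 24 h to -0.89 at 48 h in differentiation media, were nearer to the median of all genes than those of the 8 class II genes.

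Markers of other cells and states moved in some of the same comparisons, and their part in these results was not tested. Of 15 leukocyte and antigen-presenting cell markers 8 had a tested probe, and their summed signal was 4120 to 5410 with nontargeting and 2400 to 2910 with ZNF148 siRNA at 48 h in growth media, 3630 to 4160 against 2690 to 3130 at 48 h in differentiation media, and overlapped at 24 h and at 96 h in differentiation media. At 48 h in growth media CD14 was called lower (-3.50) and ITGAM higher (1.42), and at 96 h in differentiation media CD14 (-1.24), CSF1R (-1.12) and CD86 (-1.33) were called lower. The B cell gene MS4A1 was well above background on 1 of 29 arrays, and the dendritic cell genes FLT3 and CD1C were so on 0 of 29. The B cell gene CD79A and the myeloid genes CSF1R and CD86 were above it on all 29 and PTPRC on 28. The 6 proliferation markers summed to 18600 to 28000 with nontargeting and 1820 to 2270 with ZNF148 siRNA at 48 h in growth media, and to 25700 to 27100 against 30100 to 33200 at 24 h. At 48 h in differentiation media they summed to 1360 to 1540 against 842 to 1000, with 1 called lower and 1 higher and a median difference of -0.19. At 96 h in differentiation media they summed to 3050 to 3140 against 409 to 511, and all 6 were called lower. The 12 muscle markers summed to 113000 to 874000 with nontargeting and 1740000 to 1780000 with ZNF148 siRNA at 48 h in growth media, where 11 were called higher and MYF5 lower. At 24 h 1 was called higher, and in differentiation media 9 at 48 h and 3 at 96 h. The 6 endothelial markers had 1 call lower and 1 higher at 48 h in growth media. In differentiation media they had 3 lower at 48 h and 3 lower and 1 higher at 96 h. Of all probes 2.9%, 10.3%, 14.9% and 11.5% were called lower at 24 h and 48 h in growth media and 48 h and 96 h in differentiation media. The shares called higher were 1.93%, 9.86%, 13.2% and 9.24%.

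Over the 10 group means, as a description in which the groups share the siRNAs and media, HLA-DRA, HLA-DPA1, HLA-DPB1 and HLA-DOA had nearly 1 profile. The groups include those at 96 h in growth media, whose difference chose the genes, so likeness among these genes is partly given in advance. Pearson r was 0.999 between HLA-DPA1 and HLA-DPB1, 0.994 between HLA-DOA and HLA-DRA and 0.990 between HLA-DRA and CD74. With CIITA the other genes had r from 0.809 (HLA-DOA) to 0.933 (HLA-DMB). The 5 genes most like HLA-DRA were DENND11, HLA-DOA, HLA-DRB5, CD74 and HLA-DQB1 (r from 0.9898 to 0.9946). HLA-DOA had HLA-DRA, DENND11, HLA-DPA1, HLA-DRB5 and HLA-DQB1 nearest (0.9835 to 0.9939). The 5 most like HLA-DPA1 were all class II chains, HLA-DPB1, HLA-DRB4, HLA-DRB5, HLA-DRB1 and HLA-DQB1 (0.9951 to 0.9986), and HLA-DPB1 had HLA-DPA1, HLA-DRB4, HLA-DRB1, HLA-DRB5 and PGLS (0.9928 to 0.9986).

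Genes outside the family stood among the nearest of the other 4. CD74 had HLA-DRA, DENND2D, DENND11, GAPLINC and CDC42BPA nearest (0.9854 to 0.9899). HLA-DMA had STPG1, CABIN1, DHRS4L2, SDCBP and TNFSF12 (0.9885 to 0.9940), HLA-DMB had HOXB3, AP3S1, DYRK3, ABT1 and TRIM65 (0.9832 to 0.9880), and CIITA had CPOX, SRPK1, POLR1C and ARHGAP22 among its nearest (0.9854 to 0.9871).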

How the data were processed

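Expression was measured on 29 one-colour Agilent arrays of LHCN-M2 myoblasts. Per the file headers, the deposited intensity values were processed signals from Agilent Feature Extraction 10.7.3.1, background-subtracted by that software, and 14 headers named hg19. The deposited series table held log2 values that the authors had quantile-normalized, and these differed from the values used here by at most 0.04 for the members' probes. Here, control and outlier spots were left out, log2 processed signals were averaged over the spots of a probe and quantile-normalized. The 38839 probes that 2 or more arrays measured well above background were fitted with limma 3.58.1 in R 4.3.3, 1 mean per group, with Benjamini-Hochberg adjustment. Called meant an adjusted p under 0.05 and over 2-fold. A gene was represented by its brightest tested probe, and all probes of the members are described. The members, gene lists and motifs were chosen with earlier results of these data known. Probes were named through transcript accessions in a GRCh38.p14 RefSeq table. A few genes of the lists are not reported here. Alternatives covered scaling, normexp background correction (offset 50), the authors' table, filters, variance models, slide and replicate blocks, the methods' test, averaged probes and leaving out each array. The number of arrays limits the precision.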

Additional observations from a re-analysis of the deposited data

Results flagged for a closer look

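The knockdown differences of several genes differed between times or media, by a test of the difference between them (limma, adjusted over all probes).

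Between 24 and 48 h in growth media the difference changed by -1.84 for HLA-DOA, -1.99 for HLA-DMA, -2.78 for HLA-DMB, -2.76 for HLA-DRA, -2.49 for HLA-DPA1, -2.44 for HLA-DPB1, -2.40 for CD74 and -2.44 for CIITA, with the 24 h arrays on a slide of their own. Cells were subconfluent at 24 h and confluent at 48 h. The CIITA call was lost without any 1 of 5 arrays and with normexp (-0.86), and its change was -0.11 with probes averaged. Without the 48 h nontargeting array that stood apart all 8 were called, from -1.99 for HLA-DOA to -2.95 for HLA-DMB.

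Between growth and differentiation media at 48 h it changed by -2.28 for HLA-DOA, -1.44 for HLA-DRA, -1.58 for HLA-DPA1 and -1.41 for HLA-DPB1. The arrays of these media also differed in time since transfection.

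Between 48 and 96 h in differentiation media it changed by -1.60 for HLA-DOA, -2.54 for HLA-DMB, -2.15 for HLA-DRA and -1.26 for CD74, and by 1.49 for HLA-DMA. The 4 negative changes rest on signals at or near background at 96 h, and with normexp none of them was called, at -0.09 for HLA-DOA, -0.38 for HLA-DMB, -0.57 for HLA-DRA and 0.52 for CD74.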

How the results depend on the processing

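The counts of 8 genes called lower at the 3 later tested points stayed within 1.5 times under every alternative run, though with the methods' test adjusted HLA-DOA at 48 h in growth media (adjusted p = 0.0504) and CIITA at 96 h in differentiation media (0.0669) lost the call. With no fold threshold, 7 genes passed at 24 h, 4 were higher under nontargeting siRNA in differentiation media at 48 h, and 4 were lower under ZNF148 siRNA there. That last count, 1 in the report, was 0 with only the arrays compared, with the methods' test adjusted or unadjusted, and with probes averaged. With normexp no gene was called for a deeper fall at 96 than at 48 h in differentiation media (0), and 1 was lower under nontargeting siRNA with the media change, as with the methods' test adjusted (1). CIITA's smaller knockdown difference in differentiation media at 48 h was called (1 gene) with normexp, the stricter filter, array weights and only the arrays compared. Its knockdown values were near background in both media. The median at 96 h in growth media, -5.08, was -4.29 with normexp and -4.18 with probes averaged, since the second HLA-DOA and CIITA probes are dim. Other causes were not tested.

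Leaving out 1 array gave 2 genes lower at 24 h each time, 1 to 2 lower with the media change under nontargeting and 0 to 2 under ZNF148 siRNA, 0 to 1 higher for the media difference of effects, 7 to 8 for 48 minus 24 h, 3 to 4 for 96 minus 48 h, and medians of -5.11 to -4.96 at 96 h in growth media. Of 1856 single-gene values under alternatives, 1786 kept direction and call, 38 lost the call, 22 gained it and 10 changed sign. Of these last, 1 was a called value, the CD74 change of effect from 48 to 96 h in differentiation media (0.52 with normexp). The others were near 0 and concerned 96 against 48 h in differentiation media. With probes averaged CIITA's change of effect was 0.18, its nontargeting difference -0.05 and its ZNF148 siRNA difference 0.14, and with array weights the nontargeting difference was -0.03. Leaving out 1 array gave CIITA -1.49 to 0.23, -0.17 to 0.20 and -1.43 to 0.30 for those 3 values, and HLA-DMA -0.08 to 0.09 under ZNF148 siRNA. With probes averaged CIITA's change from 24 to 48 h was -0.11, against -2.44.

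Replicate numbers did not pair the samples, as same-numbered arrays correlated by -0.143 to 0.124 in their deviations. With a replicate block the counts lower were 3, 8, 8 and 8 at 24 h, 48 h, 48 h in differentiation media and 96 h, and with the slide as a block they were the same. Falls of dim genes are the least certain, with CIITA at 48 h in growth media at -5.18, or -3.25 with normexp, CD74 at 96 h in differentiation media at -4.63, or -1.40, and HLA-DMB there at -6.19, or -3.11.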
